A study of Homo sapiens with 6 samples.

Results

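The 10 genes described here are the FOXO transcription factor genes FOXO1, FOXO3 and FOXO4, the insulin receptor gene INSR with its adaptor genes IRS1 and IRS2, and 4 genes known to be driven by FOXO factors, SESN1, SESN3, TP53INP1 and CCNG2. They were taken by symbol from a table of 16200 genes. All 10 passed the filter on low counts and were among the 12565 genes tested. SESN3 was chosen by its large rise in read counts between the groups compared here, and the set was put together with the fold changes of that comparison known. The values of the 10 genes, and whether each passed a threshold, are therefore given only as a description of this comparison. No p-value is printed for them.

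Insulin binding to its receptor leads to phosphorylation of the IRS adaptors, which recruit PI3-kinase and thereby activate the kinase AKT. AKT phosphorylates FOXO proteins, which then leave the nucleus, and when the signal is weak the FOXO proteins stay in the nucleus and activate genes of stress resistance, cell cycle arrest and metabolism. INSR and the IRS genes are themselves known FOXO-driven genes, a feedback that raises the sensitivity of the pathway when FOXO is active. In the liver this circuit is best known for switching between fasting and feeding metabolism.

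Poly(A)-enriched RNA was sequenced from RBE cells, an established human cholangiocarcinoma (bile duct cancer) line. The reference group holds 3 libraries with the label NC. The other 3 libraries carry the label sgKCNQ3, which usually stands for a guide RNA against KCNQ3, a potassium channel gene. The labels name no other treatment, allele or time for either group, and do not say whether the sgKCNQ3 cells were a clone or a pool or whether libraries came from separate cultures, so the spread between libraries may be technical. The study asked which genes lie downstream of KCNQ3 in these cells.

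Total estimated counts per library lay between 15601283 and 16089500. KCNQ3 itself had 256, 257 and 252 counts in the NC libraries and 222, 206 and 191 in the sgKCNQ3 libraries, a log2 fold change of -0.33 (SE 0.0841, edgeR adjusted p 0.00446), which was not called on log2(TPM + 1), at -0.15 (limma adjusted p 0.151). Of 12 biliary epithelial markers, 11 were measured above 1 TPM (a level scaled by transcript length and library total), with KRT7 at 1580 TPM in NC, and CFTR lay at 0.05 TPM in NC. Summed, they reached 4584 to 4702 TPM in the NC libraries and 5320 to 5384 TPM in the sgKCNQ3 libraries. TPM ran higher in sgKCNQ3 for most genes, with 8358 of 12565 tested genes positive on log2(TPM + 1). Of 16 markers of leukocytes, endothelium, fibroblasts, hepatocytes, red cells and neurons, 14 had values. A group mean above 1 TPM was reached by 4 of these, CD68, COL1A1, HBB and TTR. Only CD68 and COL1A1, 2 of the 14, passed the filter on low counts. The list summed to between 96.9 and 106 TPM per NC library and between 82.4 and 92.8 TPM per sgKCNQ3 library, nearly all of it CD68. Across tested genes, the log2 fold change rose with transcript length (Spearman's rho 0.32 across genes, which are no independent replicates). Correlated with length, the deviations of single libraries gave a rho of -0.329 to -0.174 in NC and of 0.210 to 0.275 in sgKCNQ3. Because the 10 genes have transcripts of 3301 to 9705 bases, their log2 fold changes are also given after removal of each library's trend over length and GC content. This step is called trend removal below. Fold changes of other genes are given without trend removal unless stated. The trends over length and GC content are confounded with the groups, and their part in each difference cannot be told apart from that of the groups.

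Most of the 10 genes were higher in sgKCNQ3, by small amounts except for SESN3. SESN3 rose 1.83-fold, TP53INP1 1.37-fold, and FOXO1, INSR, IRS1 and CCNG2 by 1.20- to 1.21-fold, and FOXO3 rose 1.12-fold. These 7 of 10 genes passed an adjusted p of 0.05 in the edgeR quasi-likelihood fit over all genes, each higher, where 29.1% of tested genes passed in either direction and 14% passed as higher. IRS2, SESN1 and FOXO4 did not pass. In RNA of bulk cultures, fewer cells that express a gene and less RNA per cell cannot be told apart. In library-scaled counts (CPM, counts scaled to a fixed library total) the groups did not overlap for 9 of the 10 genes, against 41.7% of tested genes. The median log2 fold change was 0.27 over the 10 genes and -0.01 over all tested genes. Nothing is read from these counts, since the comparison itself took part in the choice of genes. After trend removal, 3 of the 10 passed (SESN3, TP53INP1 and FOXO4, background 26.5%, with 10.5% higher and 15.9% lower), and the median was 0.16. DESeq2 called 4 (background 19.2%), and 4 passed without NC replicate 3 (background 21.2%) or without sgKCNQ3 replicate 1 (background 21.6%).

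**Figure D1:**
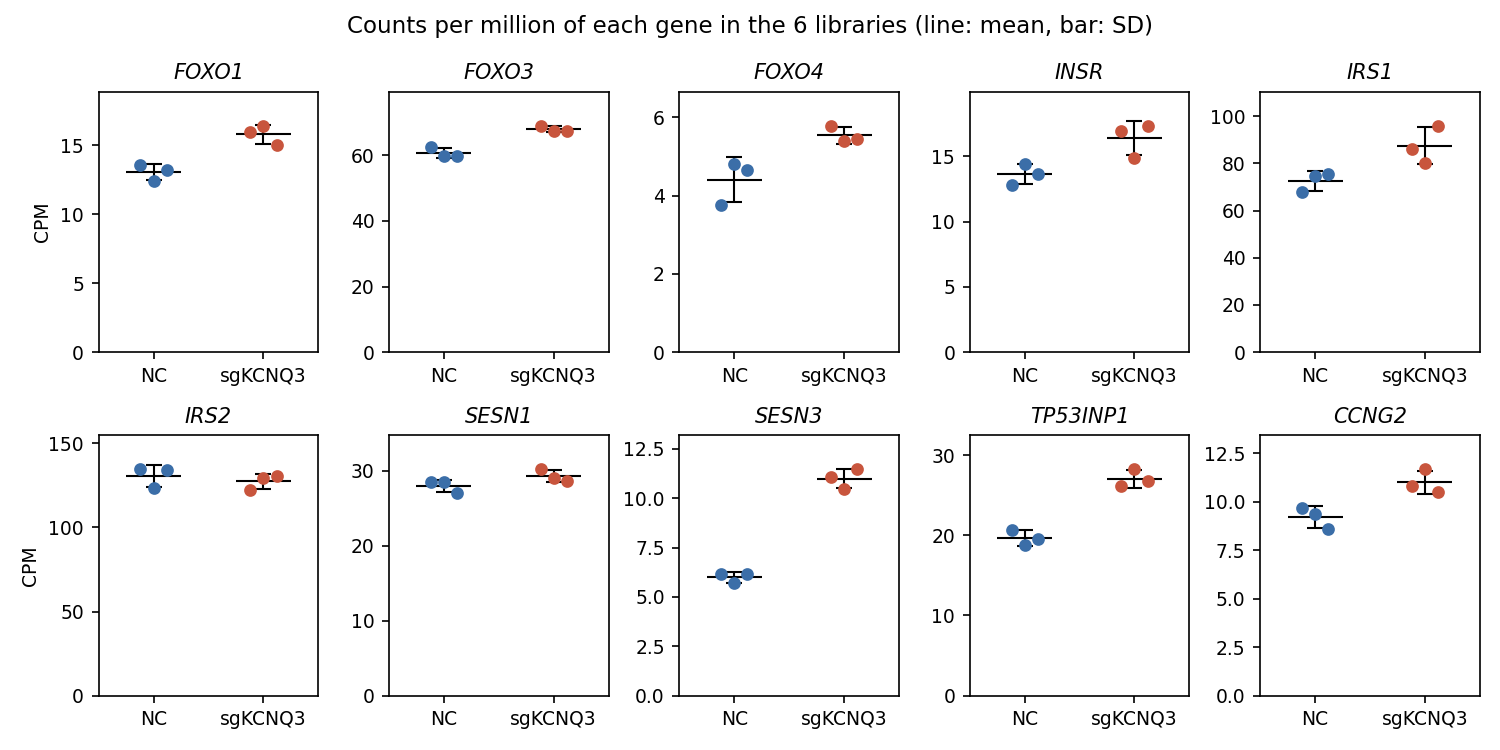
Each panel shows the CPM of a gene in the 3 NC libraries (blue) and the 3 sgKCNQ3 libraries (red), with the group mean as a line and the SD as a bar, on axes that start at 0. SESN3 went from 5.99 to 10.99 CPM, while the IRS2 points of the groups overlap.

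Per transcript length, the 10 genes spanned a wide range of levels. IRS2 was highest in NC, at 24.8 ± 1.19 TPM (SD, n = 3), and SESN3 lowest, at 0.973 ± 0.0462 TPM. From highest to lowest the order in NC was IRS2, FOXO3, IRS1, SESN1, CCNG2, TP53INP1, FOXO1, INSR, FOXO4 and SESN3. In this order CCNG2 and TP53INP1 overlapped between libraries, as did INSR and FOXO4, and no other neighbours did. In sgKCNQ3, TP53INP1 (8.10 TPM) stood above CCNG2 (6.87 TPM) without overlap, FOXO3 overlapped with IRS1, and INSR again with FOXO4. SESN3 remained the lowest of the 10 in sgKCNQ3 (1.89 ± 0.121 TPM), and 92.6% of tested genes in NC and 87.8% in sgKCNQ3 had a higher mean TPM than it.

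**Figure D2:**
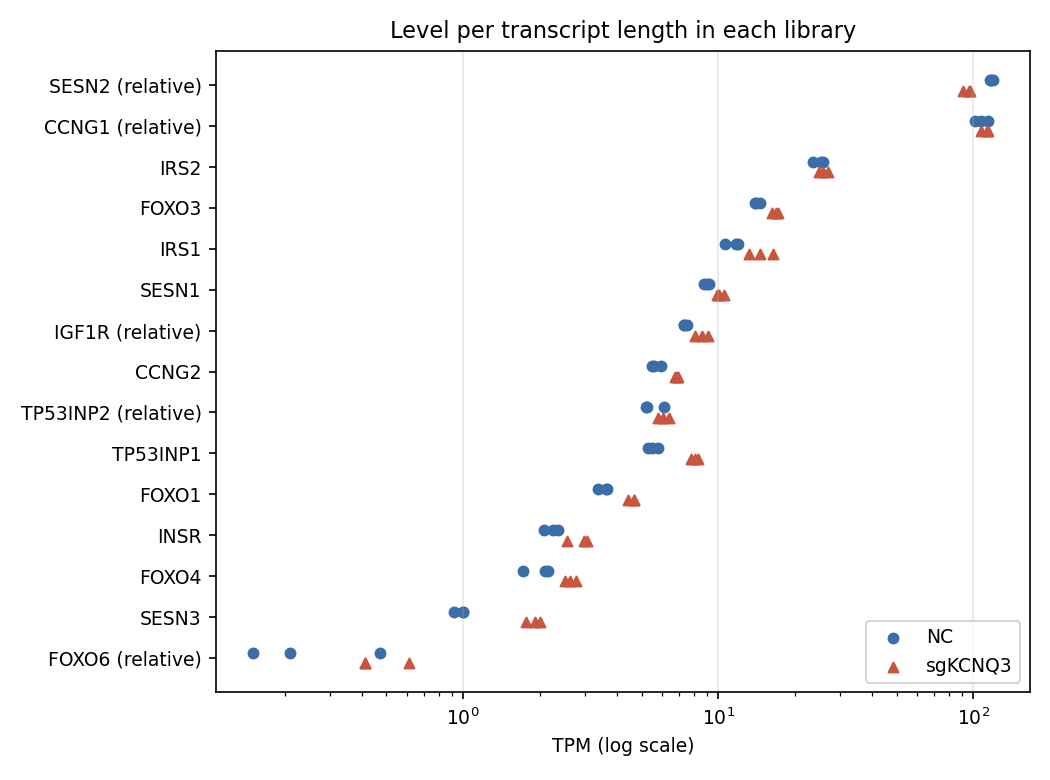
TPM of each gene and of its close relatives in every NC (circles) and sgKCNQ3 (triangles) library, on a log axis and ordered by the NC mean. SESN2 and CCNG1 lie near 100 TPM, above all 10 genes, and SESN3 lies near 1 TPM in NC.

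FOXO3 was the main FOXO transcript in these cells. It made up 71.1% to 73.0% of the summed TPM of FOXO1, FOXO3 and FOXO4 in NC and 69.4% to 70.5% in sgKCNQ3, with FOXO1 at 17.5% to 19.9% and FOXO4 at 8.58% to 11.3% over all 6 libraries. The sum was 19.7 ± 0.265 TPM in NC and 23.95 ± 0.513 TPM in sgKCNQ3. The FOXO shares of the summed level thus moved little between groups, while the sum was higher in every sgKCNQ3 library. TPM ran higher in sgKCNQ3 for most tested genes, with a median change of 0.06 on log2(TPM + 1).

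FOXO3 (Entrez gene ID 2309, chromosome 6) is the FOXO factor best known for stress responses and cell death genes. It had 62.5, 59.7 and 59.8 CPM in NC and 68.9, 67.2 and 67.5 CPM in sgKCNQ3. Every sgKCNQ3 library lay above every NC library, and FOXO3 had the smallest relative spread of the 10 genes within sgKCNQ3. The log2 fold change was 0.16 (SE 0.0478), and 0.07 (SE 0.0436) after trend removal, where FOXO3 no longer passed. FOXO3 also failed to pass without NC replicate 3 (0.15) and without sgKCNQ3 replicate 1 (0.16). Its deposited counts were not whole numbers, and a near-identical copy, FOXO3B, is listed beside it. With FOXO3B added, NC libraries had 1042, 1006 and 1003 counts and sgKCNQ3 libraries 1190, 1133 and 1155, and the log2 fold change of the sum was 0.17.

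FOXO1 (Entrez gene ID 2308, chromosome 13), the main mediator of insulin's control of liver metabolism, had 13.5, 12.4 and 13.2 CPM in NC. It had 16.0, 16.4 and 15.0 CPM in sgKCNQ3. The groups did not overlap, and the log2 fold change was 0.27 (SE 0.0834), or 0.20 (SE 0.0793) after trend removal. It did not pass after trend removal or in DESeq2 (0.28), and of the 6 fits with a library omitted it failed in the fit without NC replicate 2 (0.24).

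FOXO4 (Entrez gene ID 4303, chromosome X) is a shorter member of the family and had 58, 76 and 73 counts in the NC libraries, and 92, 85 and 87 in the sgKCNQ3 libraries. In CPM these were 3.76, 4.80 and 4.67 against 5.78, 5.39 and 5.44. NC replicate 1 was the lowest library, and the groups did not overlap. The log2 fold change was 0.33 (SE 0.135) and did not pass, and at this depth its SE was the largest of the 10. It passed after trend removal (0.36, SE 0.132), with library size scaling (0.36), on log2(TPM + 1) (0.29) and on log2(TPM + 0.1) (0.40). The fourth FOXO gene, FOXO6, had 13, 4 and 6 counts in NC and 16, 11 and 11 in sgKCNQ3, and its log2 fold change of 0.69 (SE 0.403) did not pass (edgeR adjusted p 0.205). Without NC replicate 1 the FOXO6 value was 1.31 (adjusted p 0.0470).

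INSR (Entrez gene ID 3643, chromosome 19) encodes the insulin receptor. It had 12.8, 14.4 and 13.7 CPM in NC and 17.0, 14.9 and 17.3 CPM in sgKCNQ3. The lowest sgKCNQ3 library lay just above the highest NC library. The log2 fold change was 0.27 (SE 0.0860), and 0.16 (SE 0.0837) after trend removal, where it did not pass. INSR also failed to pass in DESeq2 (0.27), on log2(TPM + 0.1) (0.35) and in 4 of the 6 fits with a library omitted, without NC replicate 1 (0.22) or 3 (0.27) and without sgKCNQ3 replicate 1 (0.24) or 3 (0.23). IGF1R, the related receptor for insulin-like growth factors, was 3.35 ± 0.280 times as abundant as INSR per length in NC and 3.03 ± 0.182 times in sgKCNQ3. It rose by 0.21 on the log2 scale (SE 0.0569, edgeR adjusted p 0.00708), a call that ended after trend removal (0.10, adjusted p 0.162).

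IRS1 (Entrez gene ID 3667, chromosome 2) and IRS2 (Entrez gene ID 8660, chromosome 13) encode the docking proteins that pass the signal from the receptor to PI3-kinase. IRS1 had 67.9, 74.7 and 75.4 CPM in NC and 86.3, 80.4 and 95.9 CPM in sgKCNQ3. All sgKCNQ3 libraries were above all NC libraries, with sgKCNQ3 replicate 3 the highest. The IRS1 log2 fold change was 0.27 (SE 0.0572) and 0.16 (SE 0.0587) after trend removal, where it did not pass, and it passed in all 6 fits with a library omitted.

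IRS2 had 134, 123 and 134 CPM in NC and 122, 129 and 131 CPM in sgKCNQ3. The groups overlapped, and its log2 fold change was -0.04 (SE 0.0445), or -0.10 (SE 0.0448) after trend removal. Its direction depended on the scaling, being positive with library size alone and on TPM. Per transcript length IRS2 exceeded IRS1 by 2.17 ± 0.202 times in NC and by 1.76 ± 0.156 times in sgKCNQ3. The third adaptor gene of the family in the table, IRS4, had at most 1 count in any library.

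SESN3 (Entrez gene ID 143686) spans bases 95165513 to 95232541 of chromosome 11 on the minus strand (GRCh38, GENCODE 29). It encodes a sestrin, a stress-inducible protein that restrains the growth kinase complex mTORC1, and is a FOXO-driven gene in several cell types. NC libraries held 95, 90 and 96 counts and sgKCNQ3 libraries 176, 165 and 183. In CPM these were 6.16, 5.68 and 6.14 against 11.1, 10.5 and 11.5. The lowest sgKCNQ3 library lay far above the highest NC library relative to the spread within either group. The log2 fold change of SESN3 was 0.87 (SE 0.105), and 62 of the 12565 tested genes had a higher one. After trend removal it was 0.71 (SE 0.102). It passed under all 18 alternatives, from 0.55 on log2(TPM + 1), which shrinks the change of weakly expressed genes, to 0.92 without sgKCNQ3 replicate 2.

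The promoter of SESN3 is shown because SESN3 has the largest fold change of the set, and those of IRS2 and FOXO4 because they alone among the windows searched held a motif of the pathway. RefSeq promoter windows (GRCh38.p14, 250 bases before to 50 after a transcript start) were taken by symbol for 9 of the 10 genes, 14 windows in all. TP53INP1 was left out of this search, so nothing is said here about its promoter. They were searched on both strands for the forkhead motif GTAAACA, which FOXO factors can bind, and for the insulin response element core CAAAACA. The forkhead motif was held by 3.42% of all 35116 windows and the insulin response core by 4.92%. Of the 14 windows 2 held a match, and the SESN3 window held none. The first stretch runs from 150 to 67 bases before the SESN3 start (chr11:95232542-95232625, minus strand), the next from 100 bases to 1 base before the IRS2 start (chr13:109786584-109786683, minus strand), and the last covers bases 14 to 43 after the FOXO4 start (chrX:71095864-71095893, plus strand). Distances count from RefSeq starts, which differ from the gene starts in GENCODE 29. The RefSeq start of SESN3 lies within the GENCODE gene, whose first base, 95232541, adjoins the printed stretch. The RefSeq start of FOXO4 lies before the start of the gene in GENCODE 29, at 71096197. No GENCODE transcript of FOXO4 held the bases after that RefSeq start, whereas transcripts of SESN3 and IRS2 held those after theirs. Capitals mark the insulin response core, read on the other strand, in IRS2 and the forkhead motif in FOXO4.
SESN3: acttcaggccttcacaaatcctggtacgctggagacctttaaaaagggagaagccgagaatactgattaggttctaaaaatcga
IRS2: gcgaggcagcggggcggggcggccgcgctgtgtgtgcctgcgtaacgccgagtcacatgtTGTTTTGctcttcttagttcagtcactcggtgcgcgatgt
FOXO4: ccggcgagtgGTAAACAgagacgtcaggag
The IRS2 match ends 34 bases before the start, in the gene whose libraries overlapped between groups. The SESN3 window of 300 bases was the poorest in G and C of the 14, at 45%, and 78.7% of all windows had a higher share, while the IRS1 window stood at 79.3%. A match or its absence describes these letters only, and FOXO sites can lie outside such windows.

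The other sestrin genes did not follow SESN3. SESN1 (Entrez gene ID 27244, chromosome 6), which is driven by both p53 and FOXO factors, had 28.5, 28.4 and 27.0 CPM in NC and 30.2, 29.03 and 28.6 CPM in sgKCNQ3. Its groups were separated by a narrow gap. The log2 fold change of SESN1 was 0.06 (SE 0.0632), or 0.05 (SE 0.0593) after trend removal, and SESN1 passed under no alternative. SESN2, known as a target of p53 and of the ATF4 stress response had 249 ± 2.54 CPM in NC and fell to 188 ± 3.39 CPM in sgKCNQ3 (log2 fold change -0.41, edgeR adjusted p 1.14e-08). SESN2 was by far the main sestrin transcript, at 92.0% to 92.4% of the summed sestrin TPM in NC and 88.6% to 88.8% in sgKCNQ3. SESN2 exceeded SESN3 by 121 ± 4.63 times per length in NC and by 50.03 ± 1.92 times in sgKCNQ3. The summed level of the 3 sestrins was therefore lower in sgKCNQ3, at 106 ± 3.52 TPM against 128 ± 1.38 TPM, with no overlap between groups.

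TP53INP1 (Entrez gene ID 94241, chromosome 8) encodes a stress protein that takes part in autophagy and cell death and is driven by p53 as well as by FOXO factors. It had 20.7, 18.8 and 19.5 CPM in NC and 26.1, 28.2 and 26.7 CPM in sgKCNQ3. The groups lay well apart, and the log2 fold change was 0.46 (SE 0.0703), or 0.36 (SE 0.0650) after trend removal. It passed under all 18 alternatives, the lowest values being those after trend removal and the highest 0.54 on log2(TPM + 0.1). Its relative TP53INP2 had a log2 fold change of 0.06 (SE 0.0880, edgeR adjusted p 0.637), with overlapping groups.

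CCNG2 (Entrez gene ID 901, chromosome 4) encodes cyclin G2, an atypical cyclin linked to growth arrest. It had 9.66, 9.35 and 8.57 CPM in NC and 10.8, 11.7 and 10.5 CPM in sgKCNQ3. The groups did not overlap, and the log2 fold change was 0.26 (SE 0.0975), close to the threshold. It did not pass after trend removal (0.17, SE 0.0947), in DESeq2 (0.26), in limma-voom (0.26), with no filter (0.26) or in 5 of the 6 fits with a library omitted (0.21 to 0.29), the exception being the fit without sgKCNQ3 replicate 3. Its relative CCNG1, a p53 target, was 18.9 ± 1.62 times as abundant per length in NC, and its log2 fold change was -0.03 (SE 0.0430, edgeR adjusted p 0.587), positive with library size scaling, on TPM and without NC replicate 3.

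**Figure D3:**
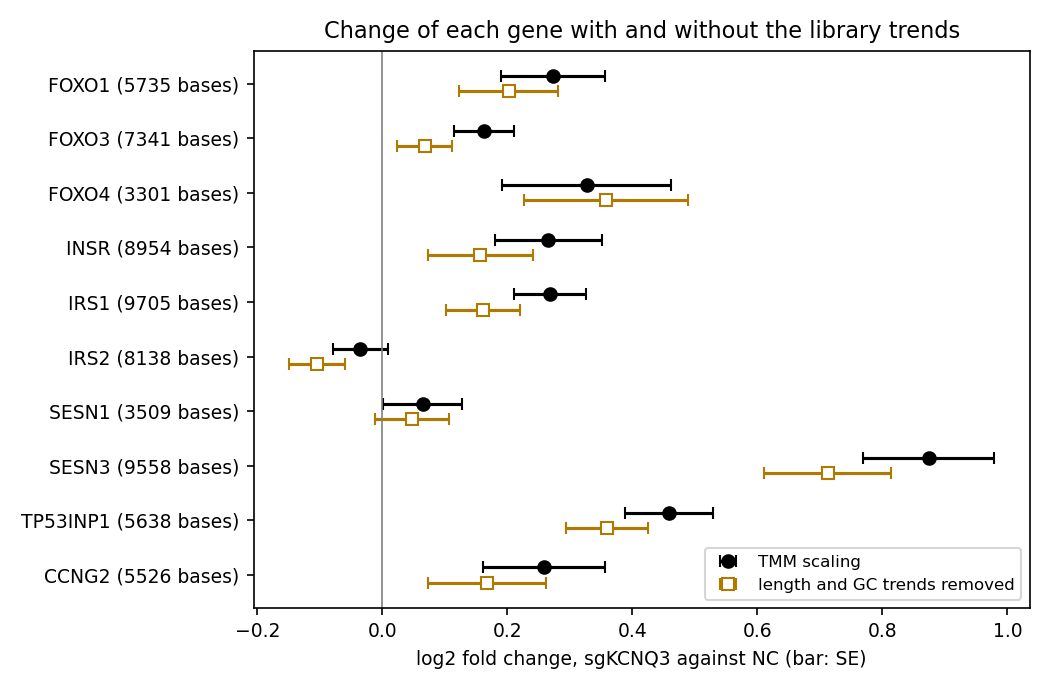
Log2 fold change of each gene (sgKCNQ3 against NC, bars: SE) with TMM scaling alone (filled circles) and after trend removal (open squares), with transcript lengths in bases beside the names. SESN3 (0.87 and 0.71) and TP53INP1 (0.46 and 0.36) have the highest values on both scales, TP53INP1 at nearly the same value as FOXO4 (0.36) after trend removal.

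The genes whose CPM followed SESN3 most closely over the 6 libraries were ranked by Pearson's r of log2 CPM. GALNT1, ERBB3, SCD and ADAM10 were among the closest, with r of 0.998 each. In all, 548 tested genes (4.36%) reached an r of 0.95, and the libraries fall into 2 groups that differ for many genes. Among the other members, TP53INP1 (0.97) and FOXO3 (0.97) were closest to SESN3, and IRS2 (-0.26) was farthest.

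Of the FOXO-regulated genes listed outside the set, more were called higher than lower. Nothing is read from this split, since the list was chosen with earlier results of these data known. Of 35 listed names 30 were in the table and 29 were tested, and 16 were called higher and 4 lower, against 14% higher and 15.1% lower among all tested genes. Their median log2 fold change was 0.19, against -0.01 over all tested genes, and 0.14 after trend removal. There, 14 were called higher and 5 lower, against 10.5% and 15.9% of all tested genes. Without CCND1, which FOXO factors are known to repress, 28 were tested, 15 were called higher and 4 lower, and the median was 0.20. ERBB3, an EGF receptor family member that FOXO factors are known to induce, had 4.52 ± 0.318 CPM in NC and rose to 9.44 ± 0.621 CPM in sgKCNQ3 (log2 fold change 1.06, edgeR adjusted p 2.36e-07). TXNIP, an inhibitor of thioredoxin and glucose uptake, rose by a log2 value of 0.40 (adjusted p 2.65e-08), KLHL24 by 0.53 (adjusted p 3.91e-05) and the mitochondrial superoxide dismutase gene SOD2 by 0.24 (adjusted p 1.34e-04). After trend removal the value of SOD2 was 0.10 (adjusted p 0.0480). GADD45A, a stress gene of growth arrest, had the largest fall of the list, from 151 ± 3.07 CPM to 98.2 ± 7.11 CPM (log2 fold change -0.62, adjusted p 3.92e-10), and the autophagy gene MAP1LC3B fell as well (-0.29, adjusted p 8.91e-06).

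Other called genes of this list were picked after their values were seen. The cell death genes BCL2L11 (0.44, adjusted p 1.62e-04) and TNFSF10 (1.03, adjusted p 5.02e-04) rose, TNFSF10 from a low level of 1.51 CPM. Of metabolic genes, PDK4, which restrains glucose oxidation, rose by a log2 value of 0.53 (adjusted p 1.76e-04). PPARGC1A rose by 0.39 (adjusted p 0.0227), a call that ended after trend removal (0.28), in DESeq2 (0.40) and without NC replicate 1 (0.37), NC replicate 3 (0.35) or sgKCNQ3 replicate 3 (0.38). The cell cycle genes RBL2 (0.21, adjusted p 0.00177) and CDKN1B (0.18, adjusted p 0.0176) rose slightly, CDKN1B not in DESeq2 (0.19) nor without NC replicate 3 (0.17) or sgKCNQ3 replicate 1 (0.13). CCND1 was also called higher (0.14, adjusted p 0.00350). KLF6 (-0.21, adjusted p 1.44e-04) and ULK1 (-0.15, adjusted p 0.0135) went the other way and were called lower. KLF6 lost its call under 2 alternatives and ULK1 under 6, and both stayed called after trend removal (-0.25 and -0.15). IGFBP1 was not called (-0.09, adjusted p 0.101). In the RefSeq windows, 23 genes of this list were found, and 5 of them (BCL2L11, DEPP1, PIK3CA, PIK3IP1 and TXNIP) held GTAAACA on either strand, against 4.19% of all genes in the RefSeq table. The insulin response core was held by 2 of the 23 (GABARAPL1 and KLHL24), against 6.05% of all genes.

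Between the insulin receptor and AKT, 41 genes outside the set were tested, of which 13 were called higher and 4 lower. Among all tested genes 14% were called higher and 15.1% lower. The median log2 fold change of the 41 was 0.07, and 0.04 after trend removal. There, 5 were called higher and 4 lower, against 10.5% and 15.9% of all tested genes. On log2(TPM + 1) the split was 18 higher and 2 lower, where 20.6% of all tested genes were called higher and 4.88% lower. SOS1, an exchange factor that activates RAS, rose by 0.43 on the log2 scale (edgeR adjusted p 1.44e-05), and TBC1D4, an AKT substrate of glucose transporter traffic, by 0.34 (adjusted p 5.45e-05). IGF2R, a receptor that clears IGF2, rose by 0.18 (adjusted p 5.10e-04), but did not pass after trend removal (0.07). SGK1, a kinase related to AKT that can also phosphorylate FOXO proteins, fell from 103 ± 3.32 CPM to 84.1 ± 2.67 CPM (log2 fold change -0.30, adjusted p 1.88e-05). SOCS3, an inhibitor of insulin and cytokine signalling (-0.31, adjusted p 3.06e-04), and IGFBP4 (-0.17, adjusted p 0.00138, not called on log2(TPM + 1) at -0.08) fell too. Picked after their values were seen, AKT1 (-0.01, adjusted p 0.910) and AKT2 (0.05, adjusted p 0.385) did not pass, while the PI3-kinase genes PIK3CA (0.27, adjusted p 0.00571) and PIK3R1 (0.26, adjusted p 0.00503) passed, but not after trend removal (0.10 and 0.13).

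Enzymes and partners that modify or hold FOXO proteins moved in both directions. All 32 listed genes were tested, with 4 called higher and 7 lower, against 14% and 15.1% of all tested genes. The median log2 fold change of the list was 0.00156. The split was 6 higher and 5 lower with library size scaling (18.5% and 10.2% of all tested genes). It was 9 and 2 on log2(TPM + 1) (20.6% and 4.88%), and 2 and 11 after trend removal (10.5% and 15.9%). SKP2, a ubiquitin ligase subunit that targets FOXO1 for degradation, rose by 0.61 on the log2 scale (edgeR adjusted p 7.66e-05), and OGT, which attaches N-acetylglucosamine to FOXO1, by 0.30 (adjusted p 5.90e-06). SFN, a 14-3-3 protein gene (-0.38, adjusted p 1.77e-04), the kinase gene CDK1 (-0.28, adjusted p 2.21e-05) and the methyltransferase gene PRMT1 (-0.17, adjusted p 0.00225, not called on log2(TPM + 1) at -0.09) fell. SETD7, which methylates FOXO3, rose by 0.20 (adjusted p 0.00332), but did not pass after trend removal (0.08).

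Called partners of the sestrins went both ways. Of 20 tested genes of the sestrin, GATOR, RAG and AMPK proteins, 2 were called higher and 5 lower, where 14% of all tested genes were called higher and 15.1% lower, and the median log2 fold change was -0.10. The split was 3 higher and 4 lower with library size scaling (18.5% and 10.2% of all tested genes). It was 3 and 2 on log2(TPM + 1) (20.6% and 4.88%), and 1 and 6 after trend removal (10.5% and 15.9%). Besides SESN2, SQSTM1, an autophagy receptor that binds sestrins, fell (-0.18, edgeR adjusted p 2.92e-04), a call that ended on log2(TPM + 1) (-0.09). Among the AMPK subunit genes, PRKAA1 rose (0.20, adjusted p 9.92e-04) and PRKAG1 fell (-0.20, adjusted p 0.00170). PRKAB1, another AMPK subunit gene, was called lower (-0.19, adjusted p 0.0161), but not without NC replicate 1 (-0.18), NC replicate 3 (-0.19) or sgKCNQ3 replicate 3 (-0.14), nor in DESeq2 (-0.19) or on log2(TPM + 1) (-0.11). SEC13, a GATOR subunit gene, was called lower (-0.14, adjusted p 0.0161), but not without NC replicate 2 (-0.11), NC replicate 3 (-0.14) or sgKCNQ3 replicate 2 (-0.12), nor after trend removal (-0.07), with library size scaling (-0.11) or on log2(TPM + 1) (-0.05).

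**Figure D4:**
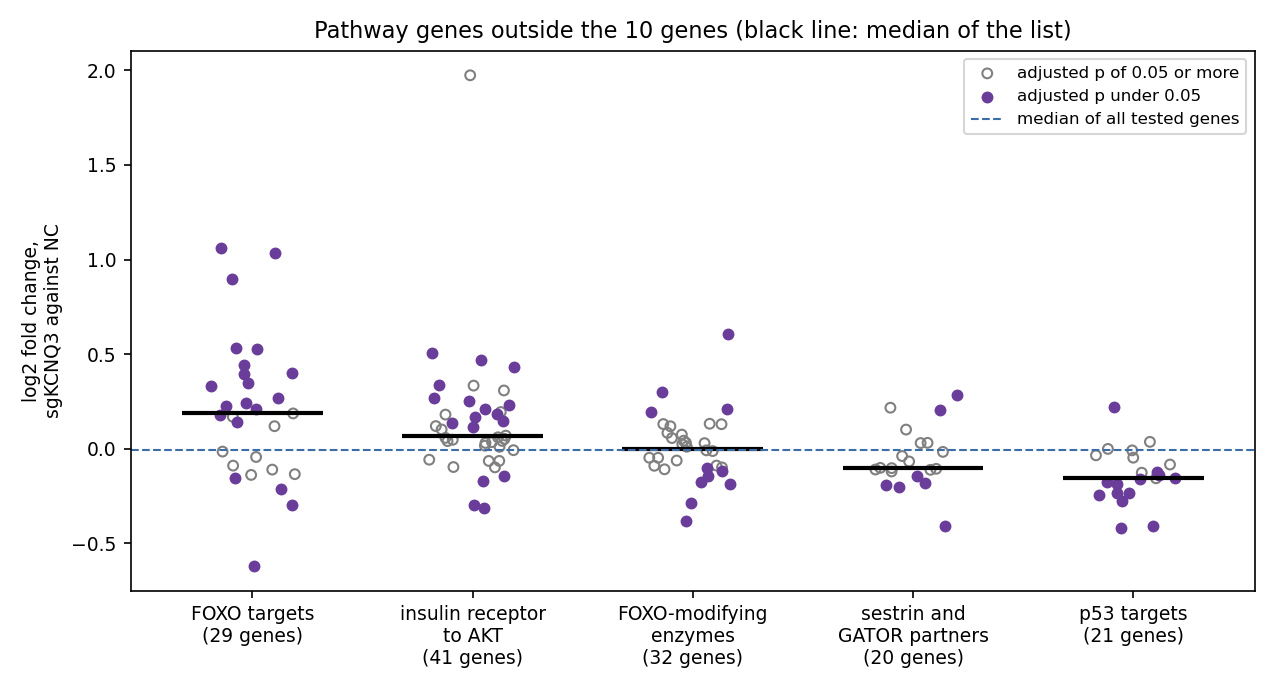
Log2 fold change (sgKCNQ3 against NC) of every tested gene of 5 lists outside the 10 genes, with genes past an adjusted p of 0.05 filled, the list median as a black line and the median of all tested genes as a dashed line. FOXO targets have a median of 0.19 and p53 targets of -0.16, and the point near 2 is SGK3, which was at 0.341 CPM in NC and did not pass.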

How the data were processed

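RNA of 3 NC and 3 sgKCNQ3 RBE libraries was sequenced, with groups and replicate numbers taken from the sample titles. Per the file headers, the authors deposited estimated counts per gene with no normalization, and TPM and FPKM values next to them. The deposited signal columns, the authors' counts divided by 1 factor per library, and the deposited group means, including a whole-number score, entered no test. The submitters' processing notes name GRCh38.p13 as the build. No source used here names the aligner or counter.

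Rounded counts entered edgeR 4.0.16 under R 4.3.3 (filterByExpr, minimum count 10; TMM; robust quasi-likelihood F tests; Benjamini-Hochberg over 12565 genes; threshold 0.05). The filter removed 3635 genes. The SE is the log2 fold change divided by the square root of F. CPM uses TMM-scaled library sizes. An exact permutation test of 3 against 3 libraries cannot go below 0.1. Tested on simulated counts of this comparison (12514 genes), the procedure recovered 31 of 49, 44 of 50, 48 of 50 and 50 of 50 genes changed by log2 folds of 0.25, 0.5, 1 and 2, and 6 of 179 calls were false. The simulated counts held few changed genes and no trend over length or GC, unlike the real libraries. They therefore do not measure the share of false calls in these data.

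The members and gene lists were chosen with earlier results of these data known. Named genes are the members, KCNQ3, tested relatives, the 6 called genes with the smallest p per list, and the 5 genes most like SESN3; others are marked. A few genes under this rule are left out of the text. Alternatives were DESeq2 1.42.0, 3 other scalings (library size, RLE, upper quartile), limma 3.58.1 (voom, and trend on TPM with pseudocounts of 1 and 0.1), 2 other filters, a replicate block, library trends over transcript length and GC removed (natural splines, 5 degrees of freedom; longest coding transcript, GENCODE 29, 12509 tested genes), and each library left out. Summing FOXO3 with FOXO3B was added after the data were seen. A planned search of FOXO protein sequences was not run. Figures were drawn with matplotlib 3.10.9.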

Additional observations from a re-analysis of the deposited data

How the results depend on the processing

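SESN3 and TP53INP1 kept their direction and their call under all 18 alternatives run, and IRS2 and SESN1 passed under none of theirs. The number of the 10 genes called was 7, and was 4 with DESeq2, 3 with the length and GC trends removed, 3 with the replicate block and those trends removed together, and 4 to 6 in the tests that left out a library. Over all genes 3658 were called (1763 higher, 1895 lower), 2322 with DESeq2 (1111 higher, 1211 lower), 2324 higher and 1280 lower with library size scaling, 2588 higher and 613 lower on log2(TPM + 1), and 1321 higher and 2003 lower with the trends removed. Called genes between the insulin receptor and AKT went from 17 to 9 with the trends removed and to 8 with the block as well, relatives of the members from 2 to 1 in both, and p53 targets from 13 to 6 on log2(TPM + 1) and to 6 on log2(TPM + 0.1). The sign changed for IRS2 and CCNG1 with library size scaling (8.45e-04 and 0.00209), on log2(TPM + 1) (0.0557 and 0.0521) and on log2(TPM + 0.1) (0.0577 and 0.0525). It also changed for CCNG1 without NC replicate 3, its values with a library omitted running from -0.0737 to 0.00418. The cause of these changes was not tested. Of 1473 values of 82 genes under the alternatives, 195 lost and 5 gained a call. Deviations of libraries with the same replicate number had correlations of 0.0136, -0.0977 and 0.0078. No pairing by number was seen in these values, but the labels do not say whether such libraries were prepared together. With the replicate block alone 6 of the 10 genes and 3136 genes in all were called, CCNG2 (0.26) losing its call. With block and trend removal together the 3 were SESN3, TP53INP1 and IRS1 (0.16), while with trend removal alone they were SESN3, TP53INP1 and FOXO4. FOXO4 had 58 to 92 counts per library and FOXO6 4 to 16, and their SEs were 0.135 and 0.403.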

Other observations

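The listed genes driven by p53, a class to which SESN1 and TP53INP1 also belong, were mostly lower where called. This list too was chosen with earlier results of these data known. Of 22 listed genes outside the members 21 were tested, with 12 called lower and 1 higher by edgeR's quasi-likelihood test, against 15.1% lower and 14% higher among all tested genes. The median log2 fold change was -0.16, and -0.12 after removal of the length and GC trends. There, 11 were called lower and 0 higher, against 15.9% and 10.5% of all tested genes. On log2(TPM + 1) 5 were called lower and 1 higher, against 4.88% and 20.6% of all tested genes. GDF15, a secreted stress cytokine, fell from 574 ± 10.7 to 429 ± 22.3 CPM (log2 fold change -0.42, edgeR adjusted p 1.30e-08). CDKN1A, the CDK inhibitor p21 (-0.23, adjusted p 2.30e-05), the DNA repair gene DDB2 (-0.28, adjusted p 3.42e-05), the nuclease gene AEN (-0.24, adjusted p 4.94e-05) and the death receptor gene TNFRSF10B (-0.18, adjusted p 3.78e-04, not called on log2(TPM + 1) at -0.09) fell with it. ZMAT3 (0.22, adjusted p 9.23e-04, picked after its value was seen) was the gene called higher, and it did not pass after trend removal (0.07). TP53INP1 (0.46) thus lay above every tested gene of this list, and SESN2 (-0.41) near its lower end, in the same libraries.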
